A study of Homo sapiens with 6 samples.

Results

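The Jumonji histone lysine demethylases described here are KDM2A, KDM2B, KDM7A, KDM3A, KDM3B, JMJD1C, KDM4A, KDM4B, KDM4C and KDM6B. These 10 genes, of 18417 measured, were picked because several of them were higher after treatment in the contrast reported here. Their own differences are therefore given as a description with no test. Each gene had 1 probe set whose platform annotation named that gene alone. RNA came from cultures of MDA-MB-231, an established human triple-negative breast cancer line, so every array rests on 1 cell line. In 3 cultures cells short of confluence received 10 µM YW3-56 for 8 h, and in 3 they received the vehicle DMSO, for which no separate time is labelled. All 6 cultures shared the same medium with serum and antibiotics, and their total RNA was hybridised to Affymetrix arrays. YW3-56 is known as an inhibitor of peptidylarginine deiminases, enzymes that convert arginine in histones and other proteins to citrulline. The comparison of the groups addresses how exposure to the compound changed transcript levels.

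JmjC enzymes remove methyl groups from histone lysines with iron and oxygen, and turn 2-oxoglutarate into succinate as they do so. Their substrates differ by subfamily: KDM3 enzymes act on H3K9, KDM4 enzymes on H3K9 and H3K36, KDM2 enzymes on H3K36, KDM7 enzymes on H3K9 and H3K27, and KDM6 enzymes on H3K27. Because they need oxygen and iron, and because several of their genes are known to be induced in low oxygen, they are often studied as links between metabolism and chromatin in tumours.

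Values were deposited expression levels on the log2 scale, so a difference of 1 is a 2-fold difference. Array medians over genes lay between 8.15 and 8.24. The mesenchymal markers VIM, CD44 and CAV1 lay between 12.80 and 13.36 in YW3-56 and between 13.22 and 13.40 in DMSO, while SPARC, the fourth of that list, read 7.29 to 7.51 in YW3-56 and 7.55 to 7.77 in DMSO. Of 5 markers of luminal and epithelial cells, ESR1, PGR and CDH1 lay between 5.85 and 6.81 in YW3-56 and between 5.88 and 7.05 in DMSO. The list also held ERBB2, at 9.13 to 9.21 in YW3-56 and 9.07 to 9.13 in DMSO, and GATA3, at 7.07 to 7.28 in YW3-56 and 7.50 to 7.70 in DMSO. Of these marker genes, limma called CAV1 (-0.43 ± 0.09, adjusted p = 0.0085) and GATA3 (-0.37 ± 0.09, adjusted p = 0.022) lower in YW3-56, and the GATA3 call was lost without DMSO replicate 2 (adjusted p = 0.0543), without YW3-56 replicate 3 (adjusted p = 0.0982) and after a second quantile normalization (adjusted p = 0.0787). Their part in the members' differences was not tested. The leukocyte, endothelial, T cell and hepatocyte markers PTPRC, PECAM1, CD3E and ALB stayed at 6.45 or below in YW3-56 and at 6.59 or below in DMSO.

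Within the family, the members did not share one response. KDM3A, KDM7A, KDM4A and JMJD1C were at least 2-fold higher in YW3-56, KDM2A and KDM6B were 1.28-fold and 1.27-fold higher, and KDM2B, KDM3B, KDM4B and KDM4C were close to their DMSO levels. Every subfamily with more than 1 member held both kinds. In the limma fit over all genes, 6 of 10 members met the call at an adjusted p under 0.05 as higher and 0 as lower (also 0 lower at an unadjusted p under 0.05), against 9.84% of all genes called higher and 11.5% called lower. At least 2-fold higher and called were 4 members, against 0.896% of all genes. The 3 treated arrays lay above the 3 DMSO arrays in 8 of 10 members, against 15.5% of all genes. The choice of members fixed these counts, and nothing is read from them. In cultures measured in bulk, more expressing cells and more RNA per cell cannot be told apart.

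**Figure D1:**
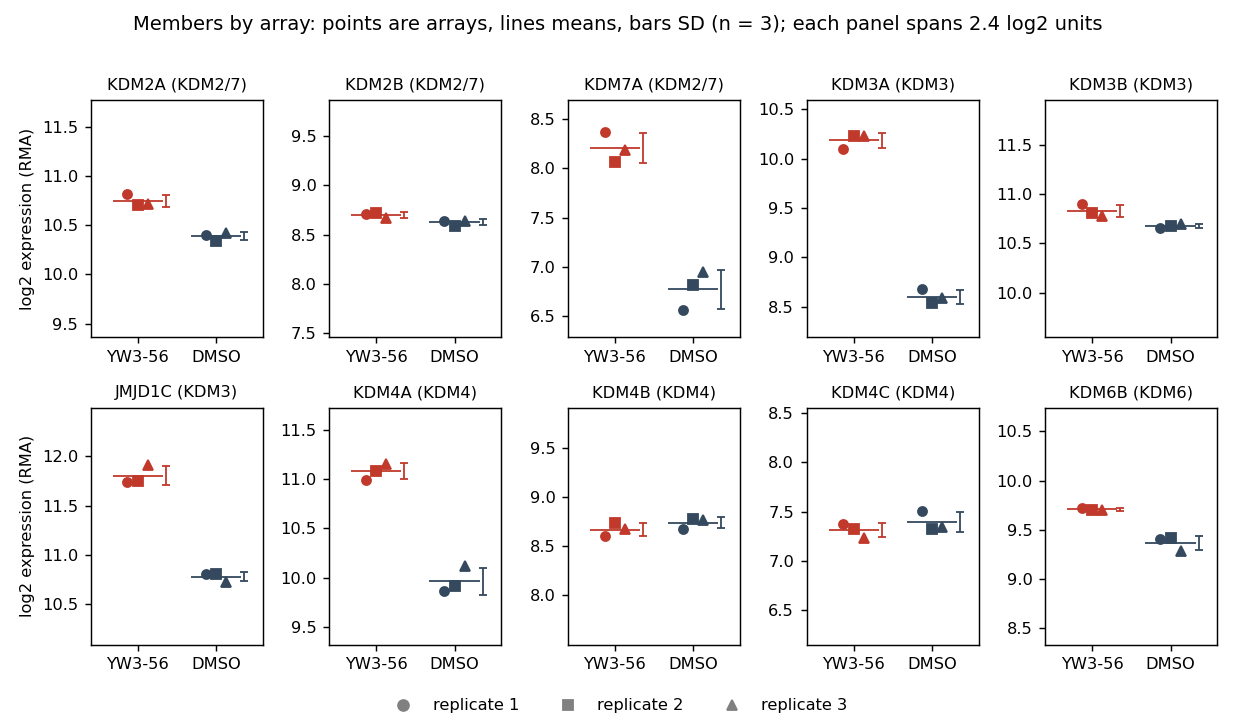
Expression of the 10 members on the log2 scale (vertical axis) in the 3 YW3-56 arrays (red, left) and the 3 DMSO arrays (dark, right) of each panel. Points are single arrays, horizontal lines group means and bars the SD, and each panel spans the same number of log2 units, so that the gaps of 1.42 for KDM3A and 1.12 for KDM7A between the nearest arrays of the groups can be set beside the overlapping groups of KDM4B and KDM4C.

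The 250 bases upstream of 1 annotated start of each member were read from RefSeq (GRCh38.p14), and all 10 members had an entry. Any other starts of a gene were not read, so a window may not be that of the start used in these cells. Those of KDM3A and KDM7A, the members with the largest differences, are printed beside those of KDM4B and KDM4C, whose groups overlapped. They run 5′ to 3′ on the strand of the gene. Capitals mark ACGTG, a form of the core of the element bound by hypoxia-inducible factors, on either strand. The other form, GCGTG, was not searched and is not marked, although the printed windows of KDM3A, KDM4B and KDM4C all hold it.
KDM3A (chr2:86441121-86441370, plus strand): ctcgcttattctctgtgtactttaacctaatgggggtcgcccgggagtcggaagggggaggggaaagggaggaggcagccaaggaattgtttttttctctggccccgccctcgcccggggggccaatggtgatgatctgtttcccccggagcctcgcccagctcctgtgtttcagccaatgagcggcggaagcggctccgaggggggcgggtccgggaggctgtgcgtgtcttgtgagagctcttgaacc
KDM7A (chr7:140176984-140177233, minus strand): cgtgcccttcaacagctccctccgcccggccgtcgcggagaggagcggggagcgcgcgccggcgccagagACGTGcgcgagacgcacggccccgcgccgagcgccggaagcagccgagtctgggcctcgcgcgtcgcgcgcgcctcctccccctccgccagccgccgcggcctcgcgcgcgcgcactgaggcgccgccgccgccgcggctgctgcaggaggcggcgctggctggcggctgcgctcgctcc
KDM4B (chr19:4968863-4969112, plus strand): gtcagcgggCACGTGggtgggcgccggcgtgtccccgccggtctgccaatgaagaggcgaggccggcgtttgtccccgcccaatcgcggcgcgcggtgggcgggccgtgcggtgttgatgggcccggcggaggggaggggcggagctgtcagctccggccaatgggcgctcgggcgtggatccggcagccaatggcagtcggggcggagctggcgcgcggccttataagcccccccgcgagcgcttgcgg
KDM4C (chr9:6757723-6757972, plus strand): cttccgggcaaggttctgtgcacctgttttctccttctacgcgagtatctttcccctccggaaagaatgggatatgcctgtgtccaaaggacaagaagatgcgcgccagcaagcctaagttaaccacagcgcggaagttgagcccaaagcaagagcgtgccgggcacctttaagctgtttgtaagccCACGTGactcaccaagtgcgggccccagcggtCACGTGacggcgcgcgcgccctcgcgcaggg
ACGTG was present in 3 of 10 members, KDM7A, KDM4B and KDM4C, and in 18.7% of 27305 RefSeq promoters cut to the same window. In KDM4B and KDM4C each match lay in CACGTG, which reads the same on both strands and is also an E-box. TGATGNAA, the core of the amino acid response element bound by ATF4 with partner proteins, was found in 0 of 10 members and in 3.19% of all promoters. GAANNTTC, a pair of heat shock units, was found in 0 members and in 5.85% of promoters. TGACNNNGC, the antioxidant response core, was found in KDM4C and in 11% of promoters. The GC box GGGCGG was in 5 members, KDM3A, KDM3B, KDM7A, KDM6B and KDM4B, and in 42.3% of promoters. All motifs were searched on both strands, and a promoter with several matches, or with CACGTG matched on both strands, counts as 1 promoter in these numbers. The windows also differed widely in base composition, from 44% G and C in JMJD1C to 81.6% in KDM7A, with a median of 58% over all promoters. ACGTG and the GC box were each found in members with a large difference in expression and in members without one.

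KDM3A, a demethylase of mono- and dimethylated H3K9, showed the largest difference of the family. Its probe set, 8043283 (gene on chromosome 2), read 10.10, 10.23 and 10.23 in YW3-56, against 8.67, 8.54 and 8.59 in DMSO. All treated arrays were high and all vehicle arrays low, with no overlap. Means were 10.19 ± 0.08 in YW3-56 and 8.60 ± 0.07 in DMSO (SD, n = 3 each), so KDM3A was 3.01-fold higher (log2 fold change 1.59 ± 0.08 SE). Only 40 of the 18417 genes had a larger log2 fold change. JMJD1C, the large relative of KDM3A whose demethylase activity has been debated, read 11.74, 11.75 and 11.92 in YW3-56, against 10.81, 10.80 and 10.73 in DMSO. It was 2.03-fold higher (1.02 ± 0.08), and its groups were 0.94 apart at their nearest arrays. KDM3B, the closest relative of KDM3A, did not share this size of difference. It read 10.90, 10.80 and 10.78 in YW3-56, against 10.66, 10.68 and 10.70 in DMSO. The groups did not touch, but the nearest arrays were only 0.08 apart and the log2 fold change was 0.15 ± 0.07.

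In the KDM2 and KDM7 subfamily, which pairs the JmjC domain with a PHD finger, the differences ranged from near 0 to almost the size of KDM3A. KDM7A, which acts on dimethylated H3K9 and H3K27, read 8.37, 8.07 and 8.18 in YW3-56, against 6.56, 6.82 and 6.95 in DMSO. The groups were 1.12 apart at their nearest arrays. KDM7A was 2.70-fold higher (1.43 ± 0.12), and 58 genes had a larger log2 fold change. Its DMSO values lay within the 5.88 to 7.05 that ESR1, PGR and CDH1 read in DMSO, and how this low level affected the fold was not tested. KDM7A was also the most variable member, with an SD of 0.15 in YW3-56 and 0.20 in DMSO, where replicate 1 was lowest. KDM2A, which binds unmethylated CpG islands and removes methyl groups from H3K36, read 10.82, 10.70 and 10.71 in YW3-56, against 10.40, 10.34 and 10.42 in DMSO. Its log2 fold change was 0.36 ± 0.07, or 1.28-fold, with the groups 0.28 apart. KDM2B, the paralog that brings a variant of Polycomb complex 1 to CpG islands, read 8.71, 8.72 and 8.67 in YW3-56, against 8.64, 8.59 and 8.64 in DMSO. The groups came within 0.03 of each other, and the log2 fold change was 0.07 ± 0.07.

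KDM4 enzymes remove methyl groups from trimethylated H3K9 and H3K36, and here 1 of the 3 members differed from the other two. KDM4A read 10.99, 11.09 and 11.16 in YW3-56, against 9.86, 9.91 and 10.12 in DMSO. Treated arrays were all high, and the nearest arrays of the groups were 0.87 apart. KDM4A was 2.16-fold higher (1.11 ± 0.09). KDM4B read 8.60, 8.73 and 8.67 in YW3-56, against 8.67, 8.77 and 8.76 in DMSO. KDM4C read 7.38, 7.33 and 7.24 in YW3-56, against 7.51, 7.32 and 7.35 in DMSO. In both genes the groups overlapped, and the log2 fold changes of -0.07 ± 0.07 for KDM4B and -0.08 ± 0.08 for KDM4C were no larger than their errors. KDM4B and KDM4C are among the Jumonji genes known to respond to low oxygen, as is KDM3A.

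KDM6B, which removes methyl groups from H3K27 and is known as an inducible gene of inflammatory signalling, had a small difference with a narrow spread. It read 9.73, 9.70 and 9.70 in YW3-56, against 9.40, 9.41 and 9.28 in DMSO. The SD was 0.02 in YW3-56 and 0.07 in DMSO, and the groups were 0.28 apart. The log2 fold change was 0.34 ± 0.07, or 1.27-fold.

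The median SD between arrays of 1 group was 0.07 for the members and 0.12 for all genes. No array stood apart in the members as a set. Between 4 and 6 of the 10 members lay above their own group mean on each array, and the largest single deviation was -0.22, for KDM7A in DMSO replicate 1. Leaving out each array in turn moved the log2 fold change of KDM3A between 1.56 and 1.63, of KDM7A between 1.33 and 1.52, of KDM4A between 1.06 and 1.19 and of JMJD1C between 0.97 and 1.05. KDM2A ranged from 0.32 to 0.38 and KDM6B from 0.30 to 0.36. KDM3B stayed between 0.12 and 0.17, KDM2B between 0.06 and 0.09, KDM4B between -0.10 and -0.04 and KDM4C between -0.11 and -0.02.

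**Figure D2:**
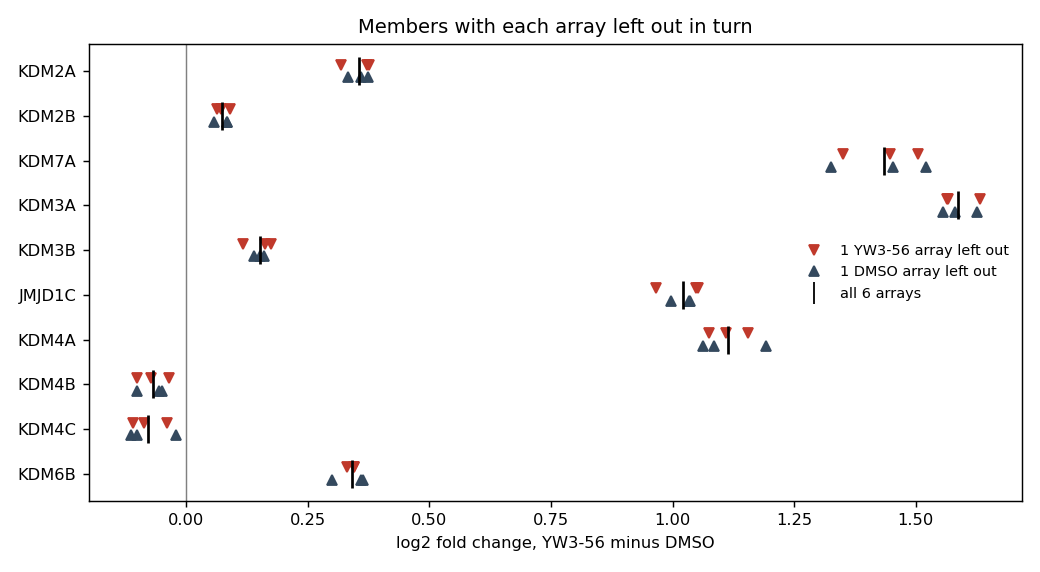
Log2 fold change of each member (horizontal axis, YW3-56 minus DMSO) with all 6 arrays (black bar), with 1 YW3-56 array left out (red) and with 1 DMSO array left out (dark). KDM3A stays between 1.56 and 1.63, and the points of KDM4B and KDM4C stay just below 0.

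Genes whose profile over the 6 arrays came closest to the leading members were found by the distance between mean-centred log2 values. Closest to KDM3A were TSPYL2 at a distance of 0.19, MXD1 at 0.21 and FICD at 0.24. For KDM7A they were NDRG1 at 0.15, STARD4 at 0.23 and ACTC1 at 0.29. For KDM4A the distances were shorter, with NCOA7 at 0.10, BTG1 at 0.13 and TRIM68 at 0.14. MXD1 encodes a repressor that competes with MYC for MAX, FICD an enzyme that modifies the chaperone BiP, and STARD4 a sterol carrier. With 6 arrays in 2 groups, such likeness mostly reflects a log2 fold change of similar size, which was 1.61 for TSPYL2, 1.39 for NDRG1 and 1.18 for NCOA7.

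Other genes with a JmjC domain were taken from a list of 20, of which 18 were measured. Of these, 5 rose, 4 fell and 9 did not pass the limma test. The shares called were 27.8% higher and 22.2% lower, against 9.84% and 11.5% of all genes, with no set test. With calls in both directions, their median log2 fold change of -0.03 lay near the -0.05 of all genes. KDM6A, the X-linked paralog of KDM6B, read 9.86, 9.67 and 9.79 in YW3-56, against 9.05, 8.91 and 8.97 in DMSO, and was 1.73-fold higher (0.79 ± 0.08 SE, adjusted p = 5.2e-04). KDM5A, an H3K4 demethylase, read 10.02, 9.74 and 9.98 in YW3-56, against 9.23, 8.93 and 9.18 in DMSO, and was 1.74-fold higher (0.80 ± 0.11, adjusted p = 0.0019). Its paralogs KDM5B (0.01 ± 0.10) and KDM5C (-0.08 ± 0.08) did not pass, so the KDM5 subfamily was uneven as well. PHF2 (0.42 ± 0.08) and PHF8 (0.40 ± 0.08), relatives of KDM7A, also rose, at adjusted p of 0.0067 and 0.010. The PHF8 call was lost without YW3-56 replicate 3 (adjusted p = 0.0525). HIF1AN, the asparagine hydroxylase that restrains hypoxia-inducible factor, rose by 0.44 ± 0.12, but this call was lost when any array but DMSO replicate 1 was left out (adjusted p from 0.0674 to 0.125).

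Among the JmjC genes that fell were both ribosomal oxygenases, which hydroxylate histidine in ribosomal proteins. RIOX2 read 8.76, 8.80 and 8.80 in YW3-56, against 9.33, 9.19 and 9.39 in DMSO, and was 1.43-fold lower (-0.52 ± 0.08, adjusted p = 0.0026). RIOX1 had a log2 fold change of -0.29 ± 0.07, KDM4D, a paralog of KDM4A, one of -0.31 ± 0.07, and KDM8 one of -0.33 ± 0.08, with adjusted p of 0.022, 0.019 and 0.016. These smaller calls depended on single arrays. RIOX1 was lost when any array but DMSO replicate 1 was left out (adjusted p from 0.0558 to 0.0807). KDM4D was lost without DMSO replicate 2 (0.067) and without YW3-56 replicate 2 (0.0826) or 3 (0.0648), and the fall of KDM8 without YW3-56 replicate 1 (0.0573) or 3 (0.0725). KDM8 was also lost with the mean of its 2 probe sets (-0.12, adjusted p = 0.303). KDM4D has a close copy in KDM4E, whose signal its probes may share. HR, JARID2, JMJD6, JMJD4, JMJD8, HSPBAP1 and TYW5 did not pass, with log2 fold changes between -0.11 and 0.15.

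**Figure D3:**
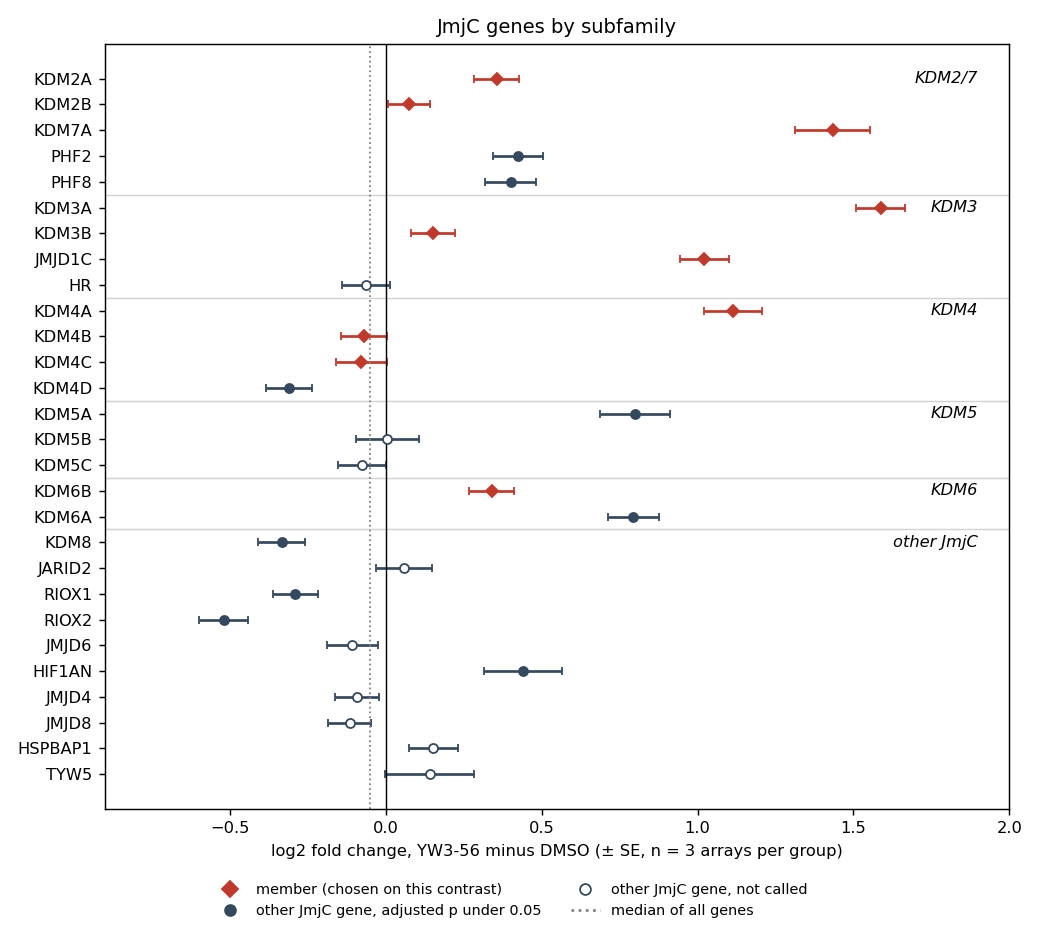
Log2 fold change of every measured JmjC gene (horizontal axis, YW3-56 minus DMSO, bars are SE, n = 3 arrays per group), grouped by subfamily. Members (red diamonds) reach 1.59 for KDM3A, the other genes (circles, filled where called) run from -0.52 for RIOX2 to 0.80 for KDM5A, and the KDM3, KDM4 and KDM5 groups each hold genes on and away from 0.

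The demethylases of the other chemistry and the methyltransferases that oppose the members did not move as blocks. KDM1A, the flavin-dependent demethylase LSD1, fell by 0.52 on the log2 scale (SE 0.08, adjusted p = 0.0035), while PHF21A, a reader in its CoREST complex, rose by 0.40 ± 0.08, and the other 5 of 7 genes of that list did not pass. Of 6 H3K9 methyltransferases, which write the mark that KDM3A and KDM4A erase, limma called 0 higher and 2 lower, and 0 were higher at an unadjusted p under 0.05. These were SUV39H1 (-0.46 ± 0.08, adjusted p = 0.0064) and EHMT1 (-0.28 ± 0.08, adjusted p = 0.038), and EHMT1 was lost when any array but DMSO replicate 3 was left out (0.0574 to 0.138) and after centring of each array (0.0947). Of 6 measured H3K36 methyltransferases, 2 rose and 3 fell. NSD3 rose by 0.44 ± 0.08, and SETMAR was 1.65-fold lower (-0.73 ± 0.07, adjusted p = 4.7e-04). SETD2 (0.37 ± 0.08) was lost without DMSO replicate 2 (0.0541) or YW3-56 replicate 3 (0.0599), and SMYD2 (-0.31 ± 0.07) without DMSO replicate 2 (0.0665), YW3-56 replicate 2 (0.081) or YW3-56 replicate 3 (0.0811) and after centring of each array (0.0502). NSD2 (-0.23 ± 0.07, adjusted p = 0.048) was lost when any array was left out (0.0686 to 0.157), after centring (0.127), after a second quantile normalization (0.0558) and with replicate number as a block (0.0504).

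Polycomb complex 2 writes the H3K27 methylation that KDM6B and KDM7A erase. Of its 10 listed subunits, 2 rose and 2 fell. The catalytic subunit EZH1 rose by 0.71 ± 0.09 (adjusted p = 0.0011), and the accessory subunit PHF19 was 1.47-fold lower (-0.55 ± 0.08, adjusted p = 0.0018). PHF1 (0.32 ± 0.09) and RBBP7 (-0.22 ± 0.07) were called with adjusted p of 0.037 and 0.049. PHF1 was lost when any array but DMSO replicate 1 was left out (0.0764 to 0.131) and RBBP7 when any array was left out (0.0602 to 0.162), after centring (0.119) and after a second quantile normalization (0.0509). Among 8 measured partners of KDM2B in its Polycomb complex, RYBP rose by 0.48 ± 0.08 (adjusted p = 0.0038) and USP7 changed by -0.30 ± 0.08 (adjusted p = 0.035). USP7 was lost when any array but DMSO replicate 1 was left out (0.0529 to 0.126) and after centring (0.0692). BCOR (-0.21 ± 0.08) and SKP1 (0.19 ± 0.08) did not pass. H3K4 methyltransferases and their core subunits were even, with 3 of 12 higher and 3 lower. KMT2C rose by 0.71 ± 0.09 and SETD1B by 0.51 ± 0.08, and CXXC1, a subunit that binds CpG islands, fell by 0.45 on the log2 scale (SE 0.09). WDR5 (-0.33 ± 0.07) was lost without YW3-56 replicate 3 (0.0565), and DPY30 (-0.26 ± 0.07) when any array but DMSO replicate 1 was left out (0.0638 to 0.102) and after centring (0.0609). RBBP5 (0.37 ± 0.09) was lost without DMSO replicate 2 or 3 or YW3-56 replicate 1 or 3 (0.0518 to 0.0803).

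**Figure D4:**
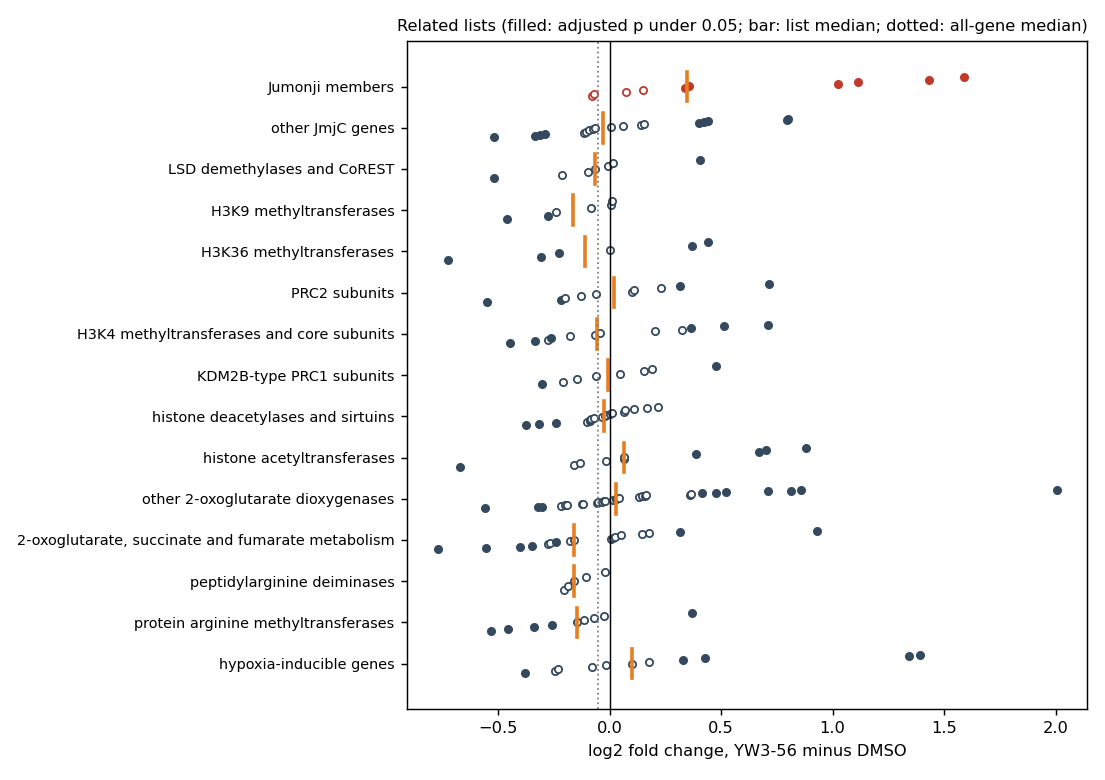
Log2 fold change of single genes (horizontal axis, YW3-56 minus DMSO) in the Jumonji members (red) and in 14 related lists (dark). Filled points have an adjusted p under 0.05, orange bars are list medians and the dotted line is the median of all genes, -0.05. List medians lie between -0.16 and 0.10 outside the members, whose median of 0.35 follows from how they were chosen.

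Further dioxygenases that, like the members, use iron and 2-oxoglutarate rose in 8 of 31 measured genes and fell in 3, with a median of 0.03. P4HA2, a catalytic subunit of collagen prolyl hydroxylase, read 11.20, 10.89 and 10.94 in YW3-56, against 9.15, 9.13 and 8.74 in DMSO, and was 4.01-fold higher (SE 0.13 on the log2 scale, adjusted p = 1.1e-04). Its paralog P4HA1 was 1.81-fold higher (0.86 ± 0.08), TET2, which oxidises methylcytosine in DNA, 1.76-fold higher (0.82 ± 0.07) and PHYH, a peroxisomal hydroxylase, 1.63-fold higher (0.71 ± 0.15). P4HA2 was the 1 gene of this list with a larger log2 fold change than KDM3A. The 3 that fell, ALKBH8 (-0.56 ± 0.16), P3H2 (-0.32 ± 0.09) and ALKBH2 (-0.30 ± 0.08), had adjusted p of 0.045, 0.033 and 0.038, and centring of each array (0.0574 to 0.0727) or the loss of YW3-56 replicate 2 (0.118 to 0.144) or 3 (0.112 to 0.144) ended all 3 calls. Without YW3-56 replicate 1 ALKBH8 (0.0525) and ALKBH2 (0.0947) were lost, without DMSO replicate 1 P3H2 (0.0558) and ALKBH2 (0.0622), without DMSO replicate 2 ALKBH8 (0.104) and P3H2 (0.10), and without DMSO replicate 3 ALKBH2 (0.101). Of 17 measured genes that make or use 2-oxoglutarate, succinate or fumarate, 2 rose and 5 fell. IDH1, which makes 2-oxoglutarate in the cytosol, read 11.41, 11.48 and 11.55 in YW3-56, against 10.44, 10.62 and 10.59 in DMSO, and rose by 0.93 ± 0.08 (adjusted p = 2.9e-04). OGDH and DLD, subunits of the mitochondrial complex that consumes it, changed by -0.77 ± 0.09 and -0.55 ± 0.08, and IDH3A of the mitochondrial cycle by -0.40 ± 0.07, all called. SDHA, a succinate dehydrogenase subunit, was called at -0.35 ± 0.07. The aminotransferase GOT1 (0.32 ± 0.08) was lost without DMSO replicate 2 or YW3-56 replicate 1 or 3 (0.0619 to 0.0849), and its mitochondrial partner GOT2 (-0.24 ± 0.07) when any array was left out (0.059 to 0.168) and after centring (0.103). In the hypoxia list, 4 of 11 measured genes rose and 1 fell, or 2 fell with replicate number as a block. NDRG1 (1.39 ± 0.11) and VEGFA (1.34 ± 0.16) rose most, and SLC2A1, the glucose transporter GLUT1, changed by -0.38 ± 0.07. BNIP3L (0.33 ± 0.07) was lost without YW3-56 replicate 2 (0.0538) or 3 (0.0502), and PFKFB3 (0.43 ± 0.12) was lost when any array but DMSO replicate 1 was left out (0.0818 to 0.163).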

How the data were processed

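Affymetrix arrays measured total RNA of 3 YW3-56 and 3 DMSO cultures. The authors deposited log2 expression values for 33297 probe sets, and per the submitters' processing notes they used RMA and affy, with no version given in the sources used here. RMA equalises the distributions of the arrays, so a shift of all transcripts would not be visible. Platform annotation gave 1 symbol for 19460 probe sets, several for 1754 and none for 12083. The brightest probe set by mean stood for each of 769 genes with several, leaving 18417 genes, without Y-linked relatives of the family in any list. Arrays carry no read depth, and 3 per group limit the precision. The labels call the replicates biological.

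limma 3.58.1 in R 4.3.3 (lmFit, eBayes, two-sided, Benjamini-Hochberg over all genes, threshold 0.05, group as the only term) gave fold changes, SE and calls. On simulated data it recovered 86% of changes of 1 log2 unit and 47% of changes of 0.5, with 11 false calls. Far fewer genes were changed in the simulation than were called here, so these rates need not hold for these data. A gene that did not pass may still have differed. The members and the 14 lists were chosen with earlier results of these data known. Named were all members, all measured genes of the JmjC list, up to 4 genes of each other list (called genes with the largest change first) and the 3 nearest profiles of the 3 leading members. To complete counts of 5 or fewer, 12 genes were added after their values were seen. Deviations from group means correlated at 0.54, 0.37 and 0.10 between arrays numbered 1, 2 and 3, so the numbers were taken as pairs, although YW3-56 replicate 2 correlated better with DMSO replicate 3 (0.42). Pairing by replicate number was tried only as a block in an alternative fit. Further alternatives were centring of each array, a second quantile normalization, averaging of all probe sets per gene, a filter at a mean log2 of 7, a trended and robust prior, and leaving out each array.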

Additional observations from a re-analysis of the deposited data

How the results depend on the processing

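Over all 12 alternatives the 6 called members kept their calls, the other 4 gained none, and no member's log2 fold change moved by more than its spread between arrays. The members were chosen because several rose on these same arrays. Their kept calls are therefore a description and cannot be set against those of the lists. Of 62 called genes named from the lists, 34 kept their call throughout, 28 lost it when some array was left out and 13 under another setting, while SKP1 gained one with a trended and robust prior (adjusted p = 0.039). The replicate block ended the call of NSD2 and of no other named gene. Under it the hypoxia list had 2 genes lower, as also under the second quantile normalization, the filter on dim genes and the trended prior. Centring of each array left 1 H3K9 methyltransferase, 1 H3K36 methyltransferase, 1 Polycomb complex 2 subunit, 0 KDM2B partners and 0 dioxygenases lower, and the second quantile normalization left 1 Polycomb complex 2 subunit lower. The H3K4 list had 5 genes higher under the second quantile normalization, the filter and the trended prior, and the last gave 2 KDM2B partners higher.

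With each array left out in turn, all genes called ranged from 1158 to 2084 higher and from 1206 to 2605 lower. The lowest counts came without YW3-56 replicate 3. The highest came without DMSO replicate 1, above the 1812 and 2121 of all 6 arrays. Genes higher ranged from 3 to 5 in the JmjC list, 1 to 2 in the H3K36 list, 1 to 2 in Polycomb complex 2, 1 to 2 in 2-oxoglutarate metabolism, 0 to 1 among arginine methyltransferases and 2 to 4 in the hypoxia list. Genes lower ranged from 1 to 4 in the JmjC list, 1 to 2 in each of the H3K9 and H3K36 lists, 1 to 3 in the H3K4 list, 0 to 1 among KDM2B partners, 0 to 2 among deacetylases, 0 to 3 among dioxygenases and 2 to 3 among arginine methyltransferases. Polycomb complex 2 had 1 lower in each case. The cause of these changes, the smaller number of arrays included, was not tested. Signal over background is not given in the deposited values, so how far dim probe sets such as that of KDM7A in DMSO understate a difference was not tested.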

Other observations

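Enzymes of other histone modifications held called and uncalled genes too. Of all genes, 9.84% were called higher and 11.5% lower. Of 10 histone acetyltransferases, 4 rose and 1 fell. EP300 was 1.84-fold higher (0.88 ± 0.08 SE, limma adjusted p = 4.0e-04), CREBBP, its close relative, was 1.59-fold higher (0.67 ± 0.07) KAT6B 1.63-fold higher (0.70 ± 0.08) and KAT7 1.31-fold higher (0.39 ± 0.07). KAT2B, which encodes PCAF, was 1.59-fold lower (-0.67 ± 0.11, adjusted p = 0.0039). Of 18 deacetylases and sirtuins limma called 0 higher (1, SIRT1, at an unadjusted p under 0.05) and 3 lower. Those 3 falls were small and made up 16.7% of the list, near the 11.5% of all genes. HDAC2 (-0.38 ± 0.08) was lost without YW3-56 replicate 2 (adjusted p = 0.0608) or 3 (0.0518), HDAC8 (-0.31 ± 0.07) without DMSO replicate 2 (0.0517) or YW3-56 replicate 2 (0.0721), and HDAC10 (-0.24 ± 0.07) when any array was left out (0.062 to 0.191) and after centring (0.109).

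Arginine methyltransferases modify the residues that deiminases can convert. Of 9 genes, 1 rose and 4 fell. PRMT7 was 1.37-fold lower (-0.45 ± 0.07, adjusted p = 0.0026) and PRMT6 1.44-fold lower (-0.53 ± 0.10, adjusted p = 0.0076). CARM1 (-0.34 ± 0.08) was lost without DMSO replicate 2 (0.0508) or YW3-56 replicate 2 (0.0804) or 3 (0.0732), and PRMT9 (0.37 ± 0.08) without DMSO replicate 2 (0.0607) or YW3-56 replicate 1 (0.0519) or 3 (0.0727). PRMT1 (-0.26 ± 0.08) was lost when any array was left out (0.072 to 0.171) and after centring (0.103). The 5 deiminase genes themselves lay between 6.43 and 7.15 in YW3-56 and between 6.48 and 7.42 in DMSO. Of them limma called 0 (also 0 at an unadjusted p under 0.05), with log2 fold changes from -0.21 ± 0.10 for PADI3 to -0.02 for PADI4. These levels overlapped those of ESR1, PGR and CDH1 (5.85 to 6.81 in YW3-56, 5.88 to 7.05 in DMSO). Whether such dim probe sets could show a change was not tested.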
